A study of Arabidopsis thaliana with 6 samples.

Results

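The comparison described here sets Arabidopsis thaliana plants labelled amiR-ETP1/2 against wild-type Col-0 plants in air, and it takes 4 of the 6 arrays of the study, chosen by their titles. The arrays labelled amiR-ETP1/2, 2 in number, held RNA of 3-week-old plants of a line described as a microRNA knockdown mutant. The 2 air arrays held RNA of 3-week-old Col-0 plants given as the air control, which by the treatment protocol means hydrocarbon-free air. The other 2 arrays held Col-0 exposed to ethylene gas at 10 ppm, for 4 h by the characteristics and for 24 h by the titles, and they enter here only through the shared estimate of the spread and where their values are named. Col-0 is the parent strain of the line, so all groups share that background. Each array was hybridised with total RNA of a sample, and the design text calls the arrays of a group biological replicates. The labels give neither the promoter behind the artificial microRNA, nor the number of independent transformants, nor the gas around the amiR-ETP1/2 plants, nor the organ sampled. Effects of the artificial microRNA, of the line and of any difference in gas or organ cannot be told apart.

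Ethylene is a gaseous plant hormone. In its absence the receptors and the kinase CTR1 keep EIN2, a membrane protein of the endoplasmic reticulum, inactive. When ethylene binds, EIN2 signals to the nucleus, where EIN3 and EIL1 accumulate and switch on response genes. ETP1 and ETP2 are F-box proteins, the parts of ubiquitin ligases that choose their substrates, and the study title links them to the degradation of EIN2. An artificial microRNA is a designed small RNA that directs the silencing machinery to transcripts with a matching site. The comparison therefore addresses which transcripts differ from Col-0 in air when both F-box genes are targeted.

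The 4 arrays were first compared in their general properties. Their median log2 values lay between 4.39 and 4.45. Pearson's r over the probe sets of an array, which do not count as replicates, was 0.985 between the amiR-ETP1/2 arrays, 0.987 between the air arrays and 0.975 to 0.981 between the groups. For RNA integrity, the 3' signal of GAPDH exceeded the 5' signal by 0.52 and 0.66 log2 units in the amiR-ETP1/2 arrays and by 0.77 and 1.76 in the air arrays, and that of actin by 4.78 and 5.20 against 4.04 and 4.68. The part of RNA integrity in the results was not tested. Of 13 leaf markers the 3 measured ones, RCA, LHCB4.1 and LHCB4.2, lay between 12.06 and 13.17 in the amiR-ETP1/2 arrays and between 12.05 and 13.31 in the air arrays. Of 11 root markers, EXPA7 and EXPA18 were measured and lay between 3.82 and 4.97 against 3.76 and 5.48. The pollen markers AGL66 and AGL104 lay between 3.50 and 3.65 against 3.53 and 3.94, and none of the 8 flower and none of the 8 seed markers had a named probe set.

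The targeted genes came first, though only ETP2 could be looked at. ETP2 (AT3G18910, chromosome 3) had log2 values of 4.23 and 4.47 in the arrays labelled amiR-ETP1/2, against 4.06 and 4.14 in the air arrays. As deposited both amiR-ETP1/2 arrays were thus above both air arrays, and no reduction of ETP2 was seen. The difference of 0.25 log2 units (SE 0.14, n = 2 arrays per group here and throughout) did not pass the test (limma, Benjamini-Hochberg adjusted p = 0.448), nor did the 0.14 left after the chromosome shift described next was taken off (adjusted p = 0.717). With that shift off the groups overlapped, as amiR-ETP1/2 array 1 lay 0.02 below air array 2. The mean ETP2 value in air stood at percentile 39.5 of all probe sets, in the dimmer part of the array. At such a level a reduction would be hard to see, so the labels could not be checked in this way. No probe set was named for ETP1 or EIN2, which were not analysed here. Every direction below is therefore that of the arrays labelled amiR-ETP1/2, whose knockdown these arrays do not show.

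Whole chromosomes differed between the arrays labelled amiR-ETP1/2 and the air arrays. For each array the median difference from the mean of the 2 air arrays was taken over the genes of a chromosome with a mean log2 value above 6, which left 736, 406, 569, 458 and 628 probe sets on chromosomes 1 to 5. On chromosome 4 the medians were 0.24 and 0.44 log2 units above air in amiR-ETP1/2 arrays 1 and 2. On chromosome 5 they were -0.32 and -0.14, and on chromosome 2 they were -0.39 and -0.04. Chromosome 3 stood at 0.08 and 0.15 and chromosome 1 at 0.01 and 0.03. So both arrays had chromosome 4 high and chromosome 5 low, whereas the low chromosome 2 was mostly that of array 1.

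In terms of the mean of both arrays, chromosome 4 was 1.27-fold higher than in air (0.35 log2 units), chromosome 5 lay at 0.84-fold (-0.25) and chromosome 2 at 0.85-fold (-0.23). Without amiR-ETP1/2 array 1 the medians of chromosomes 2 and 5 were -0.04 and -0.14, and without array 2 they were -0.39 and -0.32. Replicates differed as well: amiR-ETP1/2 array 1 minus array 2 gave -0.34 on chromosome 2, -0.20 on chromosome 4 and -0.17 on chromosome 5, while air array 1 minus array 2 gave 0.06 to 0.09 on every chromosome. On chromosome 4, 76.9% and 88.9% of the genes were higher in the 2 amiR-ETP1/2 arrays than the air mean, against 17.2% and 32.0% on chromosome 5. The ethylene arrays showed medians of -0.07 to 0.04 from the same air arrays. No test was made, because genes of a chromosome are not replicates.

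The shift ran along whole chromosomes. When the genes of a chromosome were cut into 10 runs of equal size in chromosomal order, all 10 on chromosome 4 lay above 0 in both arrays, at 0.17 to 0.27 in array 1 and 0.32 to 0.49 in array 2. On chromosome 5 none of 10 lay above 0 in either array, and on chromosome 2 none in array 1 and 2 in array 2. All 10 runs of chromosome 3 lay above 0 in both arrays, at 0.03 to 0.15 and 0.09 to 0.21. The shift also depended on the level of the gene. On chromosome 4 it was -0.02 for genes with a mean up to 4, 0.07 between 4 and 5, 0.24 between 5 and 6, 0.38 between 6 and 8 and 0.28 above 8. On chromosome 5 the same classes gave -0.05, -0.10, -0.17, -0.25 and -0.22. Dim probe sets therefore moved less than bright ones on the same chromosome. The source of these shifts, in the plants or in the hybridisations, was not tested.

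**Figure D1:**
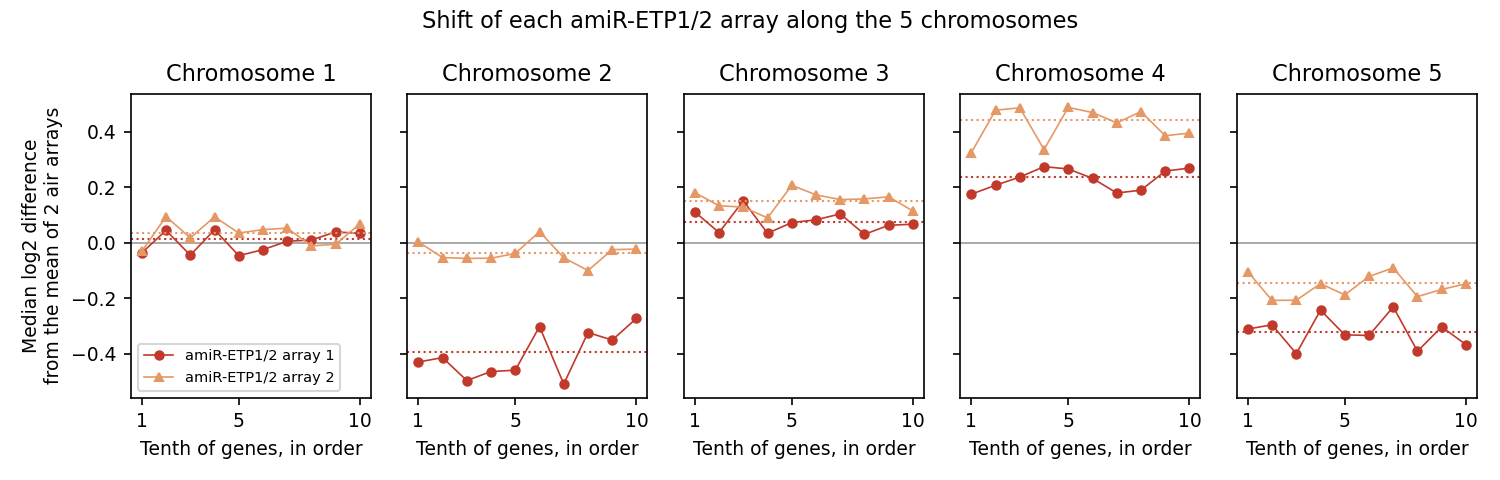
Median log2 difference of each amiR-ETP1/2 array from the mean of the 2 air arrays (vertical axis) in 10 consecutive runs of genes along each chromosome (horizontal axis, run 1 to 10), over genes with a mean above 6. Dotted lines are the medians of the whole chromosome: chromosome 4 lies above 0 along its length at 0.24 and 0.44, chromosome 5 below 0 at -0.32 and -0.14, and chromosome 2 is low mainly in array 1.

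Genes were therefore tested on the values as deposited and again after the median of their own chromosome had been subtracted in each array. A probe set was called at a limma adjusted p under 0.05. As deposited, calls were made for 141 of 22746 probe sets (0.62%), of which 79 (0.347%) were higher and 62 (0.273%) lower in amiR-ETP1/2. After chromosome centring there were 413 calls (1.82%), with 221 (0.972%) higher and 192 (0.844%) lower. Among the 13415 probe sets of a single nuclear gene the count was 72 (0.537%) as deposited, 40 higher (0.298%) and 32 lower (0.239%). It was 186 (1.39%) after centring, 82 higher (0.611%) and 104 lower (0.775%). Of the 40 higher calls as deposited 16 lay on chromosome 4, and of the 32 lower calls 15 lay on chromosome 5.

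A gene was taken to differ beyond its chromosome when it was called in the same direction in both value sets and both amiR-ETP1/2 arrays lay beyond both air arrays in both. This held for 64 genes (0.477%), 34 higher (0.253%) and 30 lower (0.224%). The condition on the single arrays removed none of the nuclear genes called in both value sets. Their centred differences were 0.71 or more in size, with a median of 1.35, and 45 of them were at least 1 log2 unit. A second rule used each array by itself and no test. By it 47 genes (0.35%) exceeded their chromosome by at least 1 log2 unit in all 4 pairs of an amiR-ETP1/2 and an air array. Of these 29 were higher (0.216%) and 18 lower (0.134%). Of the 64 genes 37 also met this second rule, 22 higher and 15 lower, while 10 genes met it without being among the 64.

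These counts rest on few arrays, and every check below reuses arrays by which the genes were chosen. With air array 1 left out the 64 genes became 12, with air array 2 left out 17, and with ethylene array 1 or 2 left out 5. The genes left were among the 64 in 10 of the 12, 13 of the 17 and 5 of the 5. With amiR-ETP1/2 array 1 left out 95 genes met the rule, 44 of them among the 64, and with its array 2 left out 98 did, 47 of them among the 64. The 141 calls as deposited became 28, 37, 9, 229 and 252 in the same order of arrays, and the 413 centred calls became 161 without air array 2 and 192 and 185 without ethylene arrays 1 and 2. The 5 genes left without an ethylene array were AT5G26270, AT2G37870, AT4G27280, QQS and AT5G62360. Those 5 met the rule in each of 17 other settings, and all 30 genes named below as largest rises and falls were called after centring in each of them.

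Centring removed few calls and added many. Of the 72 nuclear calls as deposited 8 were lost, namely 6 higher ones, all on chromosome 4, and 2 lower ones, both on chromosome 5. AT4G39200, which encodes a ribosomal protein, had 10.66 and 10.79 in amiR-ETP1/2 against 9.95 and 9.75 in air. Its difference of 0.87 (limma adjusted p = 0.0475) shrank to 0.54 beyond chromosome 4 (adjusted p = 0.125). AT4G19140 (1.03 as deposited, 0.69 centred), AT4G39860 (1.02 and 0.68) and AT4G31790 (0.90 and 0.57) were lost in the same way on chromosome 4, and AT5G35100 (-0.99 and -0.75) on chromosome 5. For these the groups still did not overlap as deposited, but the part beyond the chromosome did not pass.

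**Figure D2:**
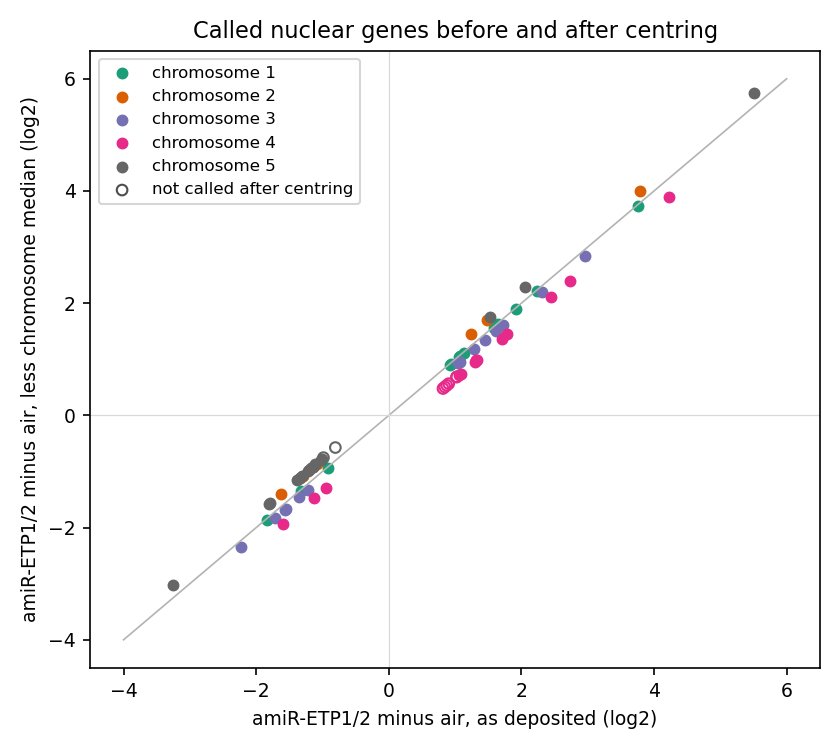
Difference of amiR-ETP1/2 from air for the 72 nuclear genes called as deposited, with the log2 difference as deposited on the horizontal axis and that beyond the chromosome median on the vertical axis. The grey diagonal marks no change. Chromosome 4 genes lie below it and chromosome 2 and 5 genes above it, and the 8 open circles, 6 on chromosome 4 and 2 on chromosome 5, are the calls lost on centring.

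The largest rise was that of AT5G26270 on chromosome 5. It had log2 values of 9.30 and 9.63 in the amiR-ETP1/2 arrays, against 3.69 and 4.23 in the air arrays. The transcript was thus near the bottom of the scale in air and among the bright ones in both amiR-ETP1/2 arrays. Its difference was 5.51 as deposited (SE 0.20, limma adjusted p = 0.00014) and 5.74 after centring (adjusted p = 6.63e-08). At air values this dim the fold is not exact, and the shift taken off by centring is that of brighter genes. In bulk RNA such as this, a change in the number of cells of a type and a change in RNA per cell cannot be told apart, here and for every gene below.

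AT2G37870, of the lipid transfer protein type, small secreted proteins that bind lipids, lies on chromosome 2. It had 7.76 and 8.36 in amiR-ETP1/2 against 4.19 and 4.37 in air, groups that lay far apart. It rose by 4.00 beyond its chromosome (SE 0.18, limma adjusted p = 7.63e-07) and by 3.78 as deposited. AT4G33550, another gene of that type on chromosome 4, had 6.93 and 8.14 against 4.71 and 4.90. Array 2 was the higher one, and the rise was 2.39 (SE 0.28, adjusted p = 0.00168, and 0.0299 as deposited). Of the lipid transfer list 7 of 16 genes were measured, with 2 higher calls as deposited, 3 after centring and no lower ones. The centred median was 0.03 against -0.01 over all nuclear probe sets. For this list and those below, the shares called over all nuclear probe sets were 0.298% higher and 0.239% lower as deposited. After centring they were 0.611% and 0.775%. All lists were chosen with earlier results of these data known, so their counts are no independent evidence of a direction. The call added by centring, AT5G48490, had 9.18 and 9.54 against 8.46 and 8.85 (centred 0.93, adjusted p = 0.0301, and 0.0550 with medians matched for level).

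QQS (AT3G30720, chromosome 3), an orphan gene without relatives in other species whose loss raises leaf starch, had 9.27 and 9.36 in amiR-ETP1/2 against 6.41 and 6.30 in air. Both groups were tight and lay well apart, and the rise of 2.85 (SE 0.15, limma adjusted p = 2.96e-06) amounted to 7.20-fold. Of the starch list 5 of 26 genes were measured, with 1 higher call as deposited and 2 after centring, none lower, and a centred median of -0.36. APL3, a large subunit of the enzyme that makes ADP-glucose for starch, was the added call, with 5.72 and 6.49 against 4.89 and 4.73 (centred 0.96, adjusted p = 0.0378, and 0.0707 with medians matched for level). The starch-degrading enzymes PWD and DPE1 had centred differences of -0.65 (adjusted p = 0.0791) and -0.46 (adjusted p = 0.188), which did not pass.

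Genes known to respond quickly to calcium and stress were among the largest rises. AT4G27280, whose protein binds calcium through EF-hands, lies on chromosome 4 and had 9.48 and 9.21 in amiR-ETP1/2 against 5.04 and 5.21 in air. It rose by 3.89 beyond its chromosome (SE 0.20, limma adjusted p = 2.09e-06). STZ (AT1G27730), a zinc finger repressor induced by salt and cold, had 8.31 and 7.23 against 3.80 and 4.22, and rose by 3.74 (SE 0.30, adjusted p = 0.000126). AT1G32920 had 8.70 and 7.94 against 5.98 and 6.20, and rose by 2.21 (SE 0.23, adjusted p = 0.000743). In all 3 amiR-ETP1/2 array 1 was the higher one, and no value reached those of air, as the rule of choice requires.

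Of this rapid response list 7 of 28 genes were measured. These 3 were called higher in both value sets, none lower, and the centred median was 1.34 against -0.01 over all nuclear probe sets. CML38, a calmodulin-like protein gene, showed how far the 2 amiR-ETP1/2 arrays could part, with 6.13 and 4.03 against 3.45 and 3.98 in air. Its centred difference of 1.34 did not pass (limma adjusted p = 0.206). The transcription factor gene WRKY53 (0.41, adjusted p = 0.452), CML37 (0.34, adjusted p = 0.523) and AT1G66090 (0.13, adjusted p = 0.799) did not pass either. The list was chosen with STZ and AT4G27280 already known to be high in these arrays, so its count is no independent evidence of a direction.

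DFR (AT5G42800, chromosome 5), the dihydroflavonol reductase of anthocyanin synthesis, had 7.18 and 8.15 in amiR-ETP1/2 against 5.87 and 5.34 in air. DFR rose by 2.29 after centring (SE 0.24, limma adjusted p = 0.00076), or 4.89-fold. As deposited its adjusted p was 0.0475, near the threshold. Of the flavonoid list 7 of 23 genes were measured. As deposited 1 was called higher, after centring 2 were, and none was lower, while the centred median was 0.83. After centring 6 of the 7 had both amiR-ETP1/2 arrays above both air arrays, as did 20.8% of all nuclear probe sets. The 6 include DFR, chosen by a rule that requires this, and the list was written with earlier results of these data known. UGT78D1, a flavonol glycosyltransferase, was the added call, with 6.50 and 6.79 against 5.83 and 5.63 (0.89, adjusted p = 0.0219, and 0.0542 with medians matched for level). UF3GT (0.83, adjusted p = 0.0586), CHIL (0.90, adjusted p = 0.0793), AT4G14090 (0.65, adjusted p = 0.205) and UGT78D2 (0.49, adjusted p = 0.245) were not called. In 6 of these genes, all but BAN, array 2 was the higher amiR-ETP1/2 array, the reverse of the stress genes above.

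LTI30 (AT3G50970, chromosome 3), a dehydrin that protects cells during cold and drying, had 7.53 and 7.61 in amiR-ETP1/2 against 5.65 and 4.86 in air. It rose 4.59-fold beyond its chromosome (limma adjusted p = 0.000495). Of the cold and dehydration list 6 of 23 genes were measured, with 1 higher call as deposited and 2 after centring, none lower, and a centred median of 0.50. COR15A, a cold-regulated chloroplast protein gene, was called only after centring, with 9.26 and 9.69 against 8.59 and 8.68 (1.05, adjusted p = 0.00804). Its close relative COR15B had 7.03 and 7.08 against 6.42 and 6.70 and missed the threshold (0.71, adjusted p = 0.0775). COR47 (0.28), COR27 (0.24) and AT4G33980 (-0.40) had adjusted p values of 0.321 to 0.538.

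**Figure D3:**
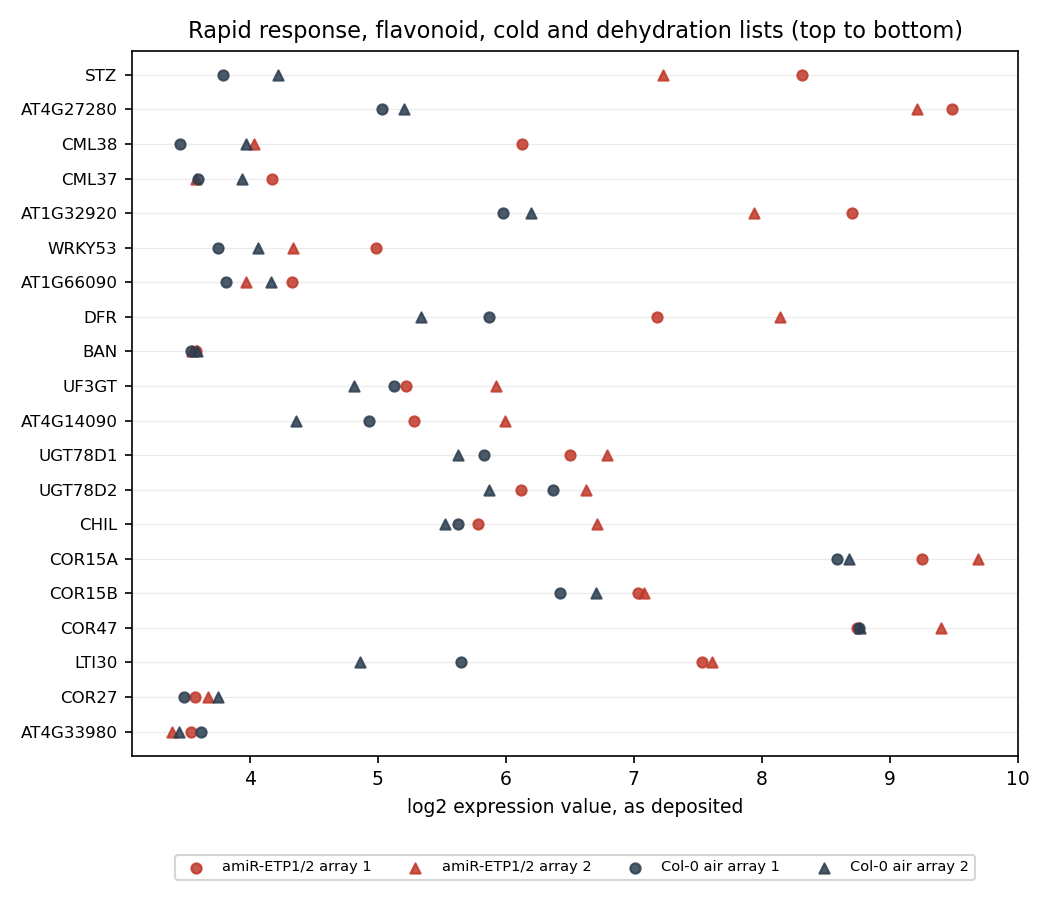
Log2 values as deposited (horizontal axis) of the measured genes of the rapid response list (STZ to AT1G66090), the flavonoid list (DFR to CHIL) and the cold and dehydration list (COR15A to AT4G33980), with red for amiR-ETP1/2, dark blue for air, circles for array 1 and triangles for array 2. STZ, AT4G27280, AT1G32920, DFR and LTI30 have both red marks far right of both blue ones, and CML38 has a single red mark at 6.13.

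The remaining large rises were in genes of several roles. EXLB1 (AT4G17030, chromosome 4), an expansin-like cell wall protein gene, had 7.13 and 7.11 in amiR-ETP1/2 against 4.13 and 5.22 in air, so that the air arrays differed more than the amiR-ETP1/2 arrays did. It rose by 2.11 (SE 0.29, limma adjusted p = 0.00452, and 0.0274 as deposited). It was the 1 call, in both value sets, among 16 measured of 28 expansin genes, whose centred median was -0.09. ZW9, a TRAF-like protein gene, rose by 1.89, AT5G51890, of the peroxidase family, by 1.75, and AT1G33811, of the GDSL lipase family, by 1.62. AT3G56880, a VQ motif protein gene, rose by 1.61. AT2G13160, annotated as a pseudogene, rose by 1.69 at 5.54 and 5.32 against 3.85 and 4.05, on a probe set of the kind that can also bind other transcripts.

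AT5G62360 showed the largest fall. This gene of the pectin methylesterase inhibitor type, which act on the cell wall, lies on chromosome 5 and had 4.66 and 4.70 in amiR-ETP1/2 against 7.85 and 8.01 in air. Each group was tight, and they lay over 3 units apart. It fell by 3.02 beyond its chromosome (SE 0.18, limma adjusted p = 6.14e-06) and by 3.25 as deposited. GH9B13 (AT4G02290), a glycosyl hydrolase family gene of the endoglucanase type on chromosome 4, had 5.87 and 6.33 against 7.99 and 7.39. As its chromosome was shifted up, its fall of 1.59 as deposited (adjusted p = 0.0418) became 1.93 beyond the chromosome (SE 0.19, adjusted p = 0.000536).

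CC-type glutaredoxins, a plant-specific class of small redox proteins that act with TGA transcription factors, gave 3 of the 15 largest falls. AT3G62950 had 4.40 and 4.59 in amiR-ETP1/2 against 7.12 and 6.35 in air, and it fell by 2.35 (SE 0.22, limma adjusted p = 0.000354). AT1G06830 had 6.09 and 5.72 against 7.71 and 7.77, and it fell by 1.86 (SE 0.18, adjusted p = 0.000494). AT3G62930 had 4.32 and 4.36 against 6.04 and 5.77, and it fell by 1.68 (SE 0.16, adjusted p = 0.000473). That none of the 3 overlapped between the groups follows from the rule by which they were chosen.

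Of 21 CC-type genes 17 were measured. As deposited 4 were called lower and none higher, and after centring 5 were lower and none higher. Over all nuclear probe sets 0.239% were called lower as deposited and 0.775% after centring. The centred median of the list was -0.64 against -0.01 over all nuclear probe sets. Centred, 10 of the 17 had both amiR-ETP1/2 arrays below both air arrays, against 26.1% of all nuclear probe sets. In 3 both were above, against 20.8%. The 10 include the 3 genes above, which were chosen by a rule that requires this. The list was written with earlier results of these data known, so these counts are no independent evidence of a direction. AT5G18600 on chromosome 5, the brightest member, had 8.81 and 8.88 against 9.58 and 9.72. It was called as deposited (-0.81, limma adjusted p = 0.0475) and not after centring (-0.57, adjusted p = 0.102). AT3G62960 (-0.78, adjusted p = 0.0451) and AT4G15700 (-0.85, adjusted p = 0.0431) were called only after centring, and with medians matched for level their adjusted p was 0.135 and 0.110. They lie at 3.50 to 4.54 on all 4 arrays, where the chromosome shift is small, so the subtraction added to their differences. Members of these gene clusters are close in sequence, and how far their probes tell them apart was not tested.

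**Figure D4:**
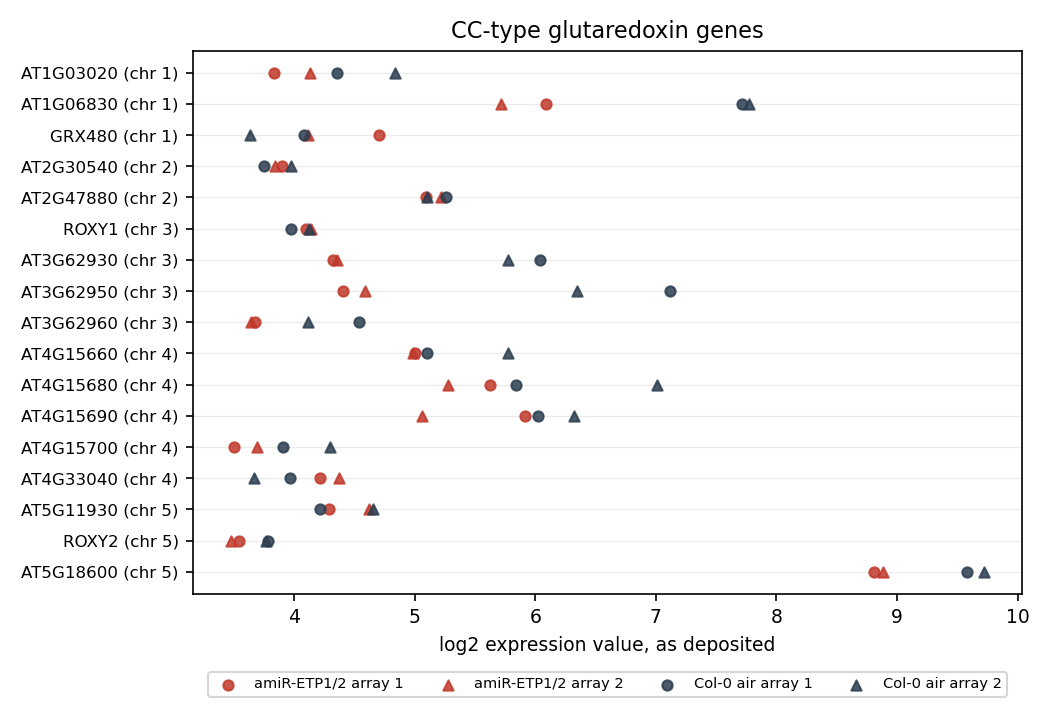
Log2 values as deposited (horizontal axis) of the 17 measured CC-type glutaredoxin genes, with red for amiR-ETP1/2, dark blue for air, circles for array 1 and triangles for array 2. AT1G06830, AT3G62930 and AT3G62950 have both red marks more than 1 unit left of both blue ones, whereas ROXY1, AT2G30540, AT2G47880 and AT5G11930 overlap.

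Other large falls were in single genes. THI2.2 (AT5G36910), which encodes an antimicrobial thionin, had 7.52 and 7.02 in amiR-ETP1/2 against 9.13 and 9.04 in air, and it fell by 1.58 (SE 0.21, limma adjusted p = 0.00345). It was the 1 call among 4 measured of 12 defence genes, whose centred median was 0.02. AT5G40450 had 6.16 and 6.57 against 8.17 and 8.13, and AT4G32340 had 8.66 and 8.76 against 9.88 and 9.80. They fell by 1.56 and 1.46. The other falls were AT3G19550 (-1.82), AT3G46880 (-1.67), AT3G15630 (-1.46), AT2G19970 of the PR-1-like CAP family (2.65-fold lower) and AT1G76240 (-1.34). To these came AT3G04210 with a TIR domain (-1.34) and the beta-glucosidase family gene BGLU47 (-1.29). Limma adjusted p over these other falls was 0.000536 to 0.00453 after centring, and up to 0.0419 as deposited, in BGLU47.

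**Figure D5:**
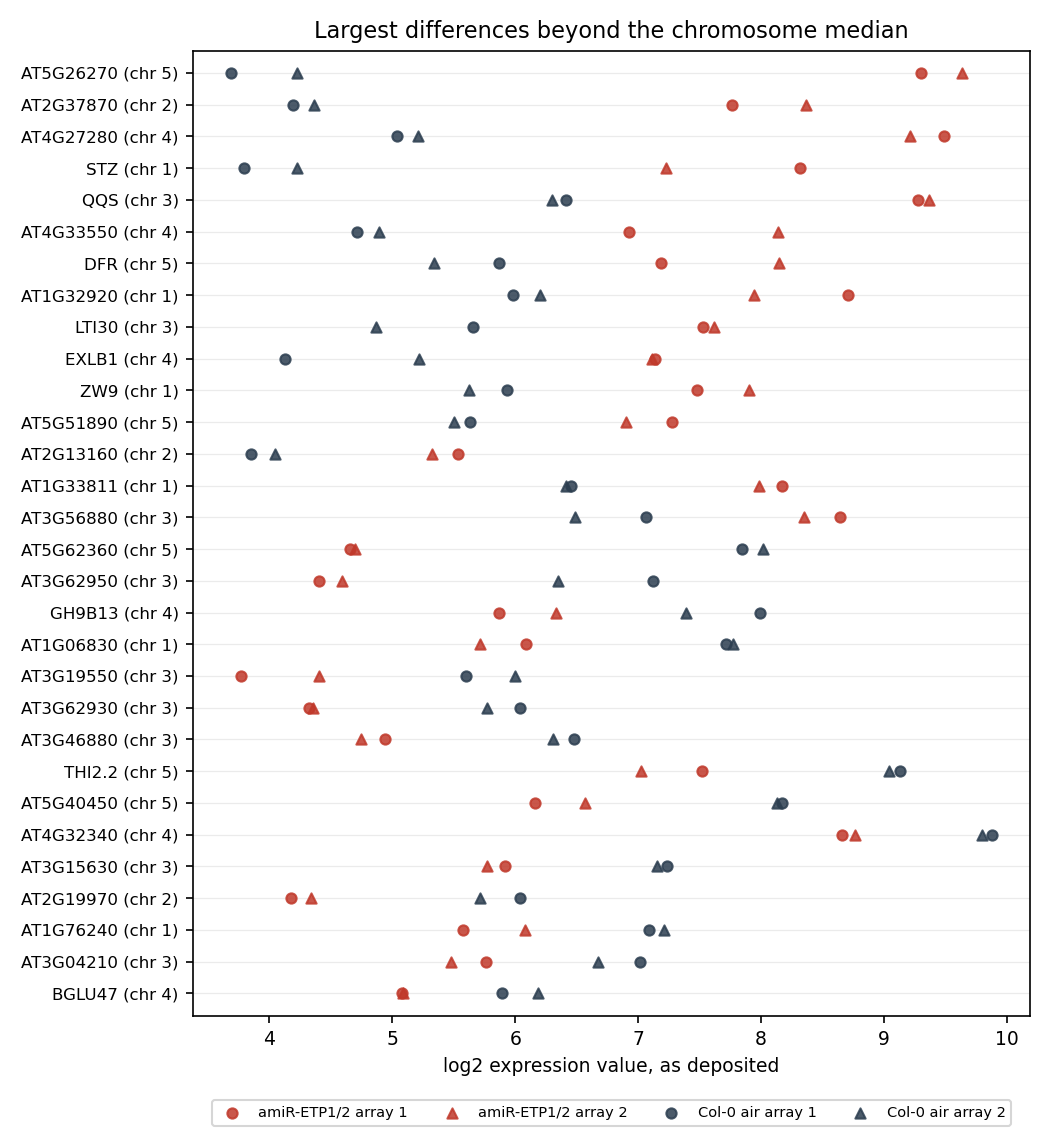
Log2 values as deposited (horizontal axis) of the 15 largest rises (AT5G26270 to AT3G56880) and the 15 largest falls (AT5G62360 to BGLU47) beyond the chromosome, with red for amiR-ETP1/2, dark blue for air, circles for array 1 and triangles for array 2. Both red marks lie on one side of both blue marks in each gene, as the rule by which the genes were chosen requires. The widest gap is in AT5G26270, at 9.30 and 9.63 against 3.69 and 4.23.

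Nuclear genes of photosynthesis gave 1 call. Of 34 genes 10 were measured, with 1 lower call in both value sets, none higher, and a centred median of -0.24. Over all nuclear probe sets 0.239% were called lower as deposited and 0.775% after centring, and 10 genes are too few to set against these shares. The call was LHCB4.3, a minor antenna protein gene of photosystem II, with 7.06 and 7.24 in amiR-ETP1/2 against 8.14 and 8.46 in air. It fell by 0.93 beyond chromosome 2 (SE 0.18, limma adjusted p = 0.0276), and with medians matched for level its adjusted p was 0.0505. Its relatives LHCB4.1 and LHCB4.2, at about 12 to 13 in every array, had centred differences of 0.03 and -0.13. Centred, 7 of the 10 genes had both amiR-ETP1/2 arrays below both air arrays, as did 26.1% of all nuclear probe sets. The 7 include LHCB4.3, which meets the rule for genes beyond their chromosome that requires this. They also include PORB and PSAE-1 on chromosome 4, whose differences as deposited were 0.15 and 0.06. The list was written with earlier results of these data known, so the count is no independent evidence of a direction.

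In the plastid genome 2 of 69 genes were called, both lower and both in each value set. Over all probe sets 0.273% were called lower as deposited and 0.844% after centring. The gene rbcL, for the large subunit of Rubisco, had 4.81 and 4.38 in amiR-ETP1/2 against 6.15 and 6.01 in air, and it fell by 1.48 (SE 0.17, limma adjusted p = 0.0182). The gene psbA, for the D1 protein of photosystem II, had 6.08 and 5.80 against 7.29 and 6.94, and it fell by 1.18 (SE 0.17, adjusted p = 0.0434). The median of all 69 was 6.44 and 5.80 in amiR-ETP1/2 arrays 1 and 2 and 6.46 and 6.01 in the air arrays, so array 2 of each group was the lower one, and the median difference was -0.08. The genes psaA (-1.19, adjusted p = 0.159) and psaJ (-1.17, adjusted p = 0.151) did not pass.

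In the ethylene pathway itself no measured gene was called in either value set. Of 20 genes of perception and signalling 4 were measured, with a centred median of -0.00. EIN3, the transcription factor that acts downstream of EIN2, had 7.97 and 8.04 in amiR-ETP1/2 against 8.16 and 7.62 in air, so the groups overlapped (centred difference -0.00, SE 0.18, limma adjusted p = 0.996). RTE1, which acts on the receptor ETR1, had 4.18 and 4.60 against 5.13 and 4.89 (-0.40, adjusted p = 0.243), and its relative RTH had -0.01 (adjusted p = 0.989). Of 16 synthesis genes only the ACC oxidase gene AT1G12010 was measured (0.02, adjusted p = 0.962). Of 13 ethylene-responsive genes 3 were measured. ARL, an ARGOS-like growth gene, had 4.26 and 4.36 against 3.80 and 3.90 (0.67, adjusted p = 0.0708), PDF1.2, a defensin gene, had 0.20 (adjusted p = 0.613), and RTE1 is the third. With so few members named on the array, the pathway was sampled rather than covered.

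The ethylene arrays share the air arrays with this comparison, so differences of both from air are linked, and they are given side by side only. In the order amiR-ETP1/2 minus air as deposited, then ethylene minus air, the values were 4.23 and 3.30 for AT4G27280, 3.76 and 3.95 for STZ, 2.23 and 2.66 for AT1G32920 and 2.45 and 2.99 for EXLB1. They were 5.51 and 0.15 for AT5G26270, 3.78 and -0.26 for AT2G37870 and 2.96 and 0.45 for QQS. DFR had 2.06 and -1.49, LTI30 had 2.31 and -1.01, and AT1G33811 had 1.65 and -2.09. Among the falls, AT5G62360 had -3.25 and -4.17, THI2.2 -1.81 and -4.29 and GH9B13 -1.59 and -3.21, while AT3G62930 had -1.57 and -0.15, AT5G40450 -1.79 and 2.48 and AT3G15630 -1.35 and 3.44. EIN3 had 0.11 and 2.31, and ARL 0.46 and 6.07. Whether these differences between the amiR-ETP1/2 and the ethylene arrays pass a test was not tested here.

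Centring added 122 nuclear calls that were not called as deposited. Of these 37 had a mean level of up to 5, where the subtracted median is larger than the shift of such dim genes, and 38 were also called with medians matched for level. Of the 64 genes beyond their chromosome 57 were called in that setting too. The 5 largest of the added calls were AT4G16870, annotated as a pseudogene (-2.78), AT1G20070 (-2.55), AT1G72940 (1.70), SAG29, a sugar transporter gene tied to senescence (1.69), and CHI, a gene of the chitinase type at AT2G43570 (1.66). SAG29 had 5.86 and 6.91 in amiR-ETP1/2 against 4.91 and 4.94 in air (limma adjusted p = 0.00541 centred and 0.0981 as deposited), and AT4G16870 had 4.07 and 4.59 against 7.49 and 6.06 (0.00216 and 0.0634). In these 5 the replicates of one group or the other lay far apart, and AT1G72940 and CHI were not called with medians matched for level (adjusted p = 0.0707 and 0.0708).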

How the data were processed

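Total RNA was labelled and hybridised to Affymetrix ATH1 arrays, per the labels' protocols. The deposited table holds 1 value per probe set and array, taken as log2 from its range, since the scale is not stated. Per the submitters' processing notes limma was used, with no version given, while the summary and normalization steps have not been given in the sources used here. The 7 control probe sets were left out and 22746 tested without a filter. A platform annotation named a single gene for 13513 probe sets, several for 503 and none for 8737. Of the single genes 13436 matched a RefSeq gene (TAIR10.1) by ID and 48 by locus name, which placed 13415 on a nuclear chromosome and 69 in the plastid genome.

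All 6 arrays entered a model with a mean for every group (limma 3.58.1, R 4.3.3, lmFit and eBayes, 3 residual and 4.15 prior degrees of freedom). Tests were two-sided and adjusted over all 22746 probe sets by Benjamini-Hochberg. For centring, the median difference of an array from the air mean over the genes of a chromosome with a mean above 6 was subtracted, and probe sets without a chromosome were centred on the median over all 5 chromosomes. Prior degrees of freedom were then 8.4. Each list took the probe set with the highest mean per gene. The scripts were tested on simulated data. The genes named are the 15 largest rises and 15 largest falls beyond the chromosome, the 5 largest calls lost and gained on centring, the targets and EIN3, up to 4 called plastid genes and, from each list, up to 4 members of smallest p. Others were chosen after their values were seen, among them CML37, AT1G66090, UGT78D2, CHIL, COR27, AT4G33980, AT3G62960 and AT4G15700. The members and lists were chosen with earlier results of these data known. The number of arrays limits the precision, and adjusted p values measure only the spread between these arrays. Same-numbered arrays deviated with r of -0.169 (amiR-ETP1/2 and air), 0.069 (amiR-ETP1/2 and ethylene) and -0.137 (air and ethylene), so they were not paired. No sequence was used here.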

Additional observations from a re-analysis of the deposited data

How the results depend on the processing

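The direction of all 30 named rises and falls, and their call after centring, held in each of 17 other settings. They were chosen from the same arrays by a rule that requires both amiR-ETP1/2 arrays beyond both air arrays. Leaving out 1 array therefore cannot reverse their direction as deposited, and that it held is no independent evidence of it. As deposited each of them was called in 9 to 17 settings, some of which change only the centring and so leave the deposited values as they were. The counts moved more. The 141 calls as deposited became 259 after quantile normalization, 213 after median centring of the arrays, 232 without the 40% of probe sets that were lowest in mean, 233 with the trend and robust options, 9 from the 4 compared arrays alone and 87 when only nuclear single-gene probe sets were tested. Leaving out 1 array gave 9 to 252, with 178 higher and 51 lower calls without amiR-ETP1/2 array 1 and 119 and 133 without array 2. The 413 centred calls became 249 after quantile normalization, 149 from the 4 compared arrays, 145 with chromosome medians over all levels, 201 for nuclear probe sets alone and 218 with medians matched for level. They became 526 with the trend and robust options, 240 higher and 286 lower against 221 and 192, and 161 to 416 with 1 array left out. The 64 genes beyond their chromosome became 5 from the 4 compared arrays and 99 with the trend and robust options, which held 61 of the 64, and 5 to 98 with 1 array left out. Where 1 array is left out of a group, the lone array is assumed to vary like the others. The cause of these moves was not tested.

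The chromosome medians over all levels were -0.0218 on chromosome 1, -0.0832 on chromosome 2, -0.0016 on chromosome 3, 0.0698 on chromosome 4 and -0.0993 on chromosome 5. For the genes of chromosome 1 with a mean above 6 the median was 0.033 as deposited and 0.0033 after quantile normalization. With 1 array left out it was -0.0229 to 0.0536, and so it has no settled direction.

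With the replicate number as a block the counts were 42 as deposited, 591 after centring and 26 beyond the chromosome. As the numbers pair no arrays, a lost call under the block is no measure of size. With the air numbers crossed, a setting chosen after seeing the data like the medians matched for level, 247 were called as deposited and 356 after centring.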

Other observations

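Genes beyond their chromosome that no list held gave further values, chosen after the values were seen. CYP71B26, a cytochrome P450 gene, had 9.37 and 9.49 in the arrays labelled amiR-ETP1/2 against 8.15 and 8.56 in air (centred difference 0.96, SE 0.18, limma adjusted p = 0.0239). PRL, which encodes the MCM7 subunit of the helicase that opens DNA for replication, had 6.53 and 6.47 against 5.50 and 5.33. On chromosome 4 its difference of 1.08 as deposited became 0.74 (adjusted p = 0.0426), and with medians matched for level it was not called (adjusted p = 0.0604). AT2G43620, of the chitinase family, had 5.79 and 5.42 against 4.38 and 4.35 (1.45, SE 0.22, adjusted p = 0.00748).

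Among lower genes, UBC29, a ubiquitin-conjugating enzyme gene on chromosome 2, had 7.09 and 7.31 against 8.17 and 8.40 (-0.87, SE 0.17, limma adjusted p = 0.0285), and with medians matched for level it was not called (adjusted p = 0.0797). CRR42, a factor for the chloroplast NDH complex encoded on chromosome 5, had 6.30 and 6.28 against 7.34 and 7.64 (-0.97, SE 0.18, adjusted p = 0.0236). NdhL, a subunit of that complex on chromosome 1, is given beside it from the photosynthesis list and is not beyond its chromosome. It had 9.20 and 9.12 against 9.57 and 9.85, and its difference of -0.57 did not pass (limma adjusted p = 0.136).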
